A study of Rattus norvegicus with 16 samples.

Results

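The genes described here encode the core machinery of autophagy. They are all genes of the deposited rat count table whose symbol starts with Atg and a digit, together with 26 listed symbols for other parts of the machinery. This gave 43 of the 32623 genes in the table, 17 of them by the Atg pattern. Atg4a, a protease gene of the conjugation system, was not among the symbols of the table.

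Autophagy encloses cytoplasm in a double membrane, the phagophore, which closes into an autophagosome and fuses with the lysosome. A kinase complex around ULK starts the process, a lipid kinase complex marks the membrane with phosphatidylinositol 3-phosphate (PI3P), and conjugation enzymes attach ubiquitin-like proteins of the Atg8 family to the membrane lipid. In the kidney, autophagy is known for turnover of organelles in tubule cells under metabolic stress.

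RNA was sequenced from the rat kidney lines NRK-52E, of epithelial origin, and NRK-49F, of fibroblast origin, each a single established line. The lines shared medium in co-culture, with NRK-52E on permeable filter inserts and NRK-49F in the wells beneath, so line and support cannot be told apart. After 24 h without serum, the cultures were kept for 48 h at pH 7.4 or in acidic medium at pH 6.0, which the sample titles write as pH 7 and pH 6. The 16 libraries form 4 groups of 4: NRK-52E at pH 7.4 (N1, N2, N5 and N6), NRK-52E at pH 6.0 (N3, N4, N7 and N8), NRK-49F at pH 7.4 (N9, N10, N13 and N14) and NRK-49F at pH 6.0 (N11, N12, N15 and N16). Values below follow this order within each group. The labels do not say which libraries came from the same wells, nor that replicates were separate cultures, so the tests measure the spread between these libraries, which may be technical. Cells grown without the other line were not analysed here. Total counts ranged from 16201084 to 34784862 per library.

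Levels are given as fragments per 1000000 (FPM), counts divided by the library total after trimmed-mean scaling (TMM). FPM does not correct for transcript length, so levels are compared within a gene. A gene was called when its false discovery rate (FDR) over all genes tested was below 0.01 in both edgeR and DESeq2 with the same sign. Log2 fold changes and their standard errors (after ±) are from edgeR, with 4 libraries per group. In bulk RNA, fewer cells and less RNA per cell cannot be told apart.

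Markers of the cell types were read first. In NRK-52E at pH 7.4, the epithelial markers Epcam (0.0223 FPM) and Krt18 (0.086 FPM) were near 0 and Cdh1 averaged 1.63 FPM. Ocln averaged 41.5 FPM there and 0 FPM in NRK-49F at pH 7.4. Krt8 was the most abundant of the 9 epithelial markers in all 4 groups, at 434, 311, 854 and 206 FPM in the order above. The 9 summed to 530, 491, 455 and 511 FPM in NRK-52E at pH 7.4 and to 418, 343, 369 and 332 FPM at pH 6.0. In NRK-49F the sums were 834, 796, 956 and 851 FPM, then 208, 221, 203 and 200 FPM, so they were lower at pH 6.0 in both lines, as Krt8 was. Tjp3 went the other way in NRK-52E, from 17.4 to 43.2 FPM. Of the 10 fibroblast markers, Col1a1 averaged 23.7 FPM in NRK-52E and 6256 FPM in NRK-49F at pH 7.4, and Pdgfra 0.289 and 395 FPM. Col3a1 went the other way, with 6268 FPM in NRK-52E and 462 FPM in NRK-49F, and Thy1 was at 0 FPM in every group. The 10 summed to 7635, 7606, 7348 and 7192 FPM in NRK-52E at pH 7.4 and to 3772, 3549, 3061 and 2364 FPM at pH 6.0. In NRK-49F the sums were 14158, 14667, 14925 and 15601 FPM, then 12396, 11760, 12191 and 10430 FPM, again lower at pH 6.0. Within the NRK-49F sum, Vim went from 7164 to 2585 FPM while Col1a1 went up, from 6256 to 8276 FPM. Of 3 leukocyte markers, Ptprc was at 0 FPM throughout and Cd68 was the most abundant. Their sum was 2.7 FPM or less in each NRK-52E library, 62.9, 73.7, 97.5 and 93.1 FPM in NRK-49F at pH 7.4, and 226, 226, 261 and 257 FPM at pH 6.0. In NRK-49F this sum was Cd68 almost alone, at 81.8 and 242 FPM on average, with Cd3e at 0 and 0.0334 FPM. Of the endothelial markers, 2 of 3 were in the table, with Kdr at 0 FPM and Cdh5 at 0.366 FPM or less in each group mean. The epithelial and fibroblast sums in both lines did not overlap between the pH groups compared below. Nor did the leukocyte sum in NRK-49F, through Cd68. The leukocyte sum in NRK-52E and the endothelial sums did overlap. Their part in the results was not tested.

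Library N8 stood furthest from its group. Over 9753 genes at 10 FPM or more, the median absolute log2 deviation from the group was 0.31 in N8 and 0.187 in N13, against 0.076 to 0.17 in the others. For the members the deviation was 0.279 in N8, which held the lowest value of its group for 22 of 43 members. In NRK-49F at pH 7.4, N13 deviated by 0.215 over the members and N14 by 0.195, against 0.0631 to 0.166 in the libraries other than these 2 and N8. N13 was lowest of its group for 24 of 43 members and N14 highest for 19. Calls that change without N8, N13 or N14 are given below.

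In NRK-52E, acidic medium went with higher levels of many members, among them PI3P effectors, conjugation genes and Atg8 genes. Of 43 members, 20 rose (46.5%) and 5 fell (11.6%) at pH 6.0, while 28.2% of the 13735 genes tested rose and 28.5% fell. The median log2 fold change was 0.44 over the members and 0.00 over all genes tested. Without N8 the counts were 23 rises and 6 falls, with Atg13 (0.78), Rubcn (0.92), Stx17 (0.69) and Calcoco1 (-0.23) added and none lost. Over all genes, 4352 rose and 4562 fell of 13934 tested without N8. Without N1, N2, N3, N6 or N7 the member falls numbered 3. Falls over all genes were then 3436 to 3675, against 3916 with every library. Among libraries whose column names carry the number 21, whose meaning is not stated, 16 members rose and 4 fell. Among those with the number 22, 5 members rose and 2 fell. Over all genes, number 21 gave 2488 rises and 2756 falls of 13903 tested. Number 22 gave 1433 rises and 1387 falls of 13952. With the column number as a covariate, 18 members rose and 5 fell, against 3709 and 4005 of 14044 genes. All 25 calls had the same sign within each number.

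In NRK-49F, fewer members were called than in NRK-52E, and so were fewer of all genes tested. Over all genes, 7793 of 13735 were called in NRK-52E and 5039 of 13339 in NRK-49F. In the latter, 9 of 43 members rose (20.9%) and 6 fell (14%), while 18.4% of 13339 genes tested rose and 19.4% fell. The median log2 fold change was 0.05 over the members and -0.00 over all genes. Without N13, 7 rose and 9 fell, with Atg9b and Atg16l2 lost and Ulk1 (-0.45), Atg14 (-0.44) and Wdfy3 (-0.49) gained as falls. Over all genes, 2457 rose and 2535 fell of 13555 tested without N13. Without N10 the member rises numbered 5, against 2114 rises of 13514 genes. Within column number 20, 7 members rose and 4 fell, and within number 21, 1 rose and 1 fell. Over all genes, number 20 gave 2327 rises and 2353 falls of 13379 tested, and number 21 gave 999 and 981 of 13861. With the number as a covariate the member counts were 9 and 6, and all 15 calls had the same sign within each number.

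The pH effects of the lines were then compared directly, as the effect in NRK-52E minus that in NRK-49F over all 16 libraries. The difference was positive and called for 13 of 43 members (30.2%) and negative and called for 4 (9.3%). Over 14679 genes tested, the corresponding shares were 19.3% and 17.5%. The median difference was 0.30 over the members and -0.01 over all genes. Without N3, 8 positive member differences were called. Positive calls over all genes then went from 2838 to 2015, and the median of all genes moved to -0.12. The members' median was 0.17 without N3, or 0.28 relative to all genes, against 0.31 relative to all genes with every library. With the column number as a covariate, 12 member differences were positive and 4 negative, against 2729 and 2532 of 14979 genes tested.

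These counts were also read under other scalings. The TMM factors were 1.142 to 1.211 in NRK-52E at pH 7.4 and 0.97 to 1.064 at pH 6.0. With library totals in place of TMM, the median of all genes moved to -0.21 in NRK-52E, 0.04 in NRK-49F and -0.25 for the difference. Relative to all genes, the members' median remained 0.44 in NRK-52E and was 0.31 for the difference. The share of rises among all called genes in NRK-52E went from 49.7% to 40.7% with totals in edgeR and 37.6% with totals in both tools. For the difference, the positive share went from 52.4% to 37.8% and 33.8%. Member calls with totals in both tools were 16 rises and 9 falls in NRK-52E, then 10 rises and 6 falls in NRK-49F, and 6 positive and 5 negative differences. The members' ratio of rises to falls, larger in NRK-52E with TMM, was thus close to the same in both lines with totals in both tools. Over all genes that setting gave 2900 rises and 4815 falls in NRK-52E, and 2662 rises and 2346 falls in NRK-49F. With totals in edgeR, member calls were 16 rises and 6 falls in NRK-52E, and 10 rises and 6 falls in NRK-49F. With totals, 21 of 25 calls in NRK-52E were kept (Ambra1, Atg2b, Atg5 and Pink1 were lost), as were all 15 in NRK-49F and 10 of 17 differences. The lost differences were those of Wipi1, Atg3, Atg4b, Gabarapl1, Gabarapl2, Tax1bp1 and Pink1. Totals in both tools also added calls: falls of Pik3r4 (-0.53), Atg14 (-0.54), Atg4c (-0.66) and Calcoco1 (-0.44) in NRK-52E, a rise of Optn (0.34) in NRK-49F and a negative difference of Ulk2 (-0.65). No called member changed sign under any scaling tried.

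Across the lines, 6 members rose in both: Atg9b, Atg2b, Wipi1, Wipi2, Gabarapl1 and Nbr1. Of these, Atg9b passed the low-count filter through its acidic libraries, as described below. Another 3, Atg101, Ambra1 and Gabarap, rose in NRK-52E and fell in NRK-49F. Tecpr1 fell in NRK-52E and rose in NRK-49F. In all, 30 members (69.8%) were called in either line and 13 in neither, while 69.9% of the 12470 genes tested in both lines were called in either. Of those genes, 9.46% rose in both lines, against 14% of the members, and 10% fell in both, against 0%. A rise in NRK-52E with a fall in NRK-49F was called for 2.23% of those genes and 6.98% of the members, and the reverse for 2.05% and 2.33%. The 13 members called in neither were Ulk1, Ulk2, Atg13, Becn1, Pik3c3, Pik3r4, Atg14, Rubcn, Atg7, Calcoco1, Wdfy3, Vps11 and Stx17.

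**Figure D1:**
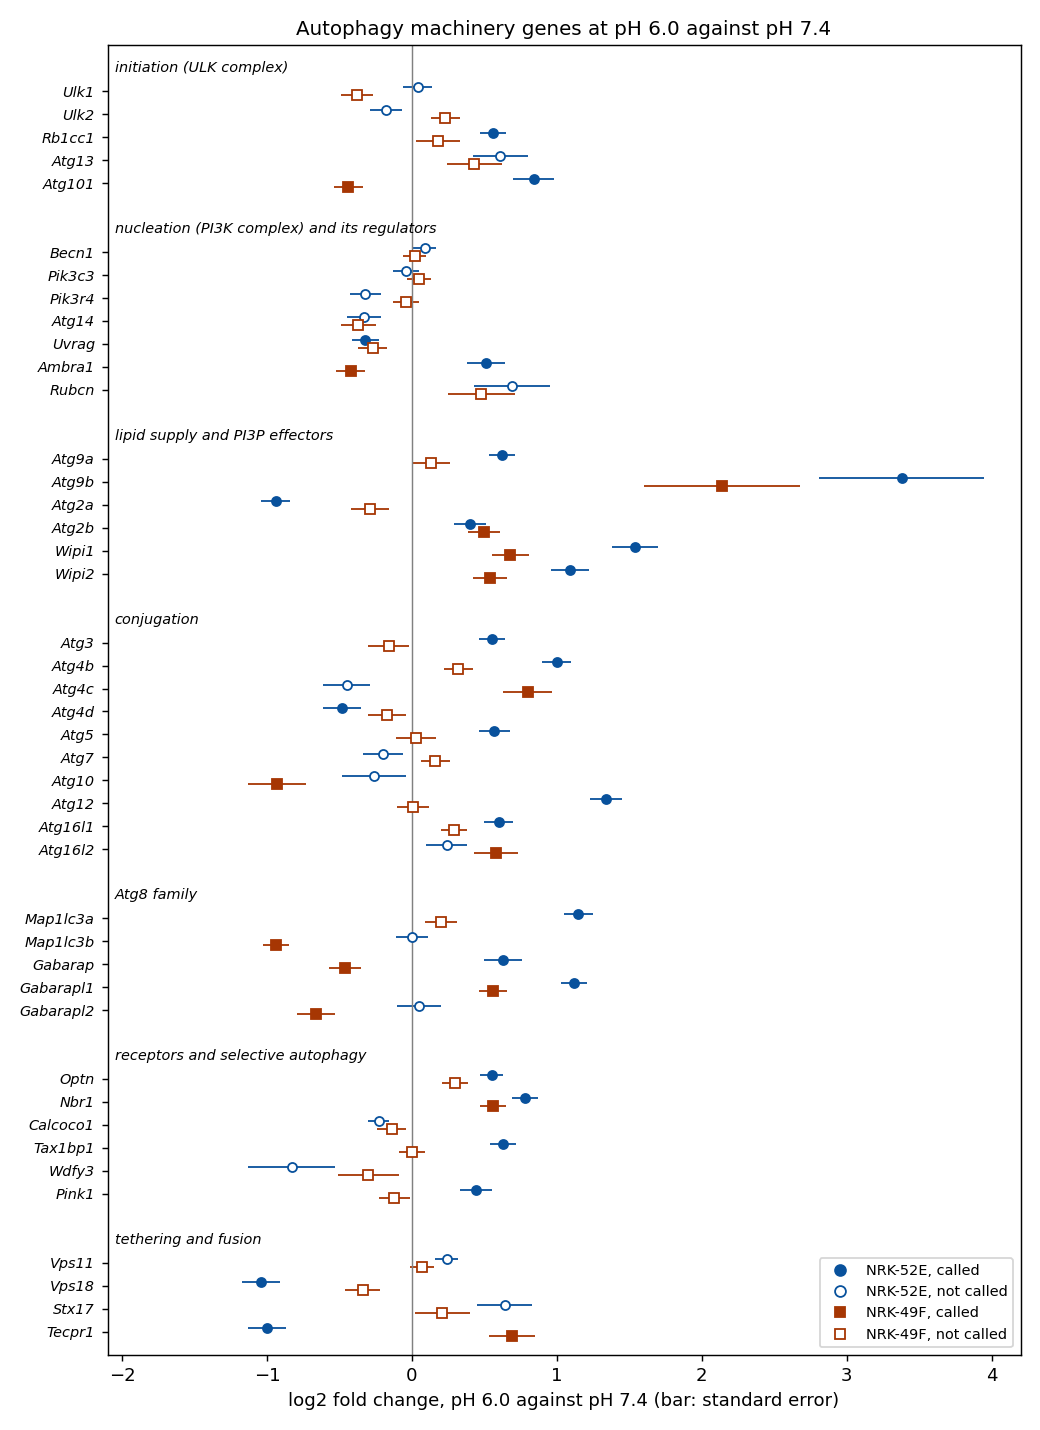
Log2 fold change at pH 6.0 against pH 7.4 (horizontal axis) for each of the 43 members (vertical axis, grouped by role) in NRK-52E (circles) and NRK-49F (squares), with bars for the standard error and filled symbols for called genes. With TMM scaling 20 members rose and 5 fell in NRK-52E, and 9 rose and 6 fell in NRK-49F; with library totals in both tools these were 16 and 9, and 10 and 6.

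Initiation genes encode the ULK kinase complex. Of 5 members, 2 rose (40%) and 0 fell in NRK-52E, where 28.2% of all genes tested rose and 28.5% fell. In NRK-49F, 0 rose and 1 fell (20%), and 18.4% of all genes rose and 19.4% fell. These shares of all genes, with medians near 0, stand for the lists below too and are repeated there in brackets. Atg101 encodes a stabilising subunit of that complex. Levels of Atg101 in NRK-52E were 56.2, 45.4, 41.2 and 51.6 FPM at pH 7.4 and 111, 76.8, 81.6 and 75.9 FPM at pH 6.0. Levels of Atg101 in NRK-49F were 62.9, 66.6, 77.5 and 71.6 FPM at pH 7.4 and 53, 46.5, 56.8 and 49.7 FPM at pH 6.0. All acidic libraries lay above all control libraries in NRK-52E, with N3 the highest, and below them in NRK-49F. Atg101 rose 1.79-fold in NRK-52E, a log2 fold change of 0.84 ± 0.14 (FDR 0.000352 in edgeR and 1.53e-06 in DESeq2). Atg101 fell to 0.739 of its pH 7.4 level in NRK-49F, a log2 fold change of -0.44 ± 0.10 (FDR 0.00301 in edgeR and 0.000482 in DESeq2). For Atg101, the pH effects differed by 1.26 ± 0.18 between the lines, which was called (FDR 1.74e-05 in edgeR and 6.31e-10 in DESeq2). Without N12 the fall in NRK-49F was not called, with a log2 fold change of -0.40 and an edgeR FDR of 0.0133.

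Ulk1 encodes the kinase itself. In NRK-52E, Ulk1 stood at 94.6, 96.1, 103 and 90.1 FPM at pH 7.4 and at 112, 101, 96.3 and 81.9 FPM at pH 6.0. In NRK-49F, Ulk1 stood at 66.7, 69.1, 56.9 and 78 FPM at pH 7.4 and at 52.5, 43.7, 55.2 and 56.8 FPM at pH 6.0. The pH groups overlapped in NRK-52E, with N3 highest and N8 lowest, and were separate in NRK-49F. Ulk1 was not called in NRK-52E, where its log2 fold change was 0.04 ± 0.10 (FDR 0.766 in edgeR and 0.883 in DESeq2). Ulk1 was not called in NRK-49F, where its log2 fold change was -0.38 ± 0.11 (FDR 0.0127 in edgeR and 0.00859 in DESeq2). Without N13, Ulk1 was called lower in NRK-49F at -0.45, with an edgeR FDR of 0.00382. For Ulk1, the pH effects differed by 0.40 ± 0.16 between the lines, which was not called (FDR 0.0436 in edgeR and 0.0368 in DESeq2). Rb1cc1, the scaffold of the complex, rose 1.48-fold in NRK-52E (FDR 0.000245 in edgeR and 1.31e-08 in DESeq2), while its value in NRK-49F was 0.18 and the difference, 0.37, was not called (edgeR FDR 0.0909). Atg13, an adaptor of the complex, had log2 fold changes of 0.61 and 0.43, neither called, and was called in NRK-52E without N8 at 0.78. Ulk2, the second kinase, had values of -0.18 and 0.23.

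Nucleation genes encode the lipid kinase complex and its regulators, and of 7 members 1 rose (14.3%) and 1 fell (14.3%) in NRK-52E (all genes 28.2% and 28.5%), and 0 rose and 1 fell (14.3%) in NRK-49F (all genes 18.4% and 19.4%). With library totals in both tools the NRK-52E counts were 0 rises and 3 falls, while all genes gave 2900 rises and 4815 falls of 13735. Totals in edgeR gave 0 rises and 1 fall for this list. Ambra1 encodes a Beclin-binding regulator. Levels of Ambra1 in NRK-52E were 61.2, 67.3, 65.5 and 65.6 FPM at pH 7.4 and 98.7, 101, 100 and 66.1 FPM at pH 6.0. Levels of Ambra1 in NRK-49F were 43.8, 46, 42.8 and 47.5 FPM at pH 7.4 and 37.3, 31.4, 31.6 and 34.8 FPM at pH 6.0. In NRK-52E, N8 lay within the control range while the other 3 acidic libraries were well above it, and in NRK-49F the groups were separate. Ambra1 rose 1.42-fold in NRK-52E, a log2 fold change of 0.51 ± 0.13 (FDR 0.00464 in edgeR and 0.00201 in DESeq2). Ambra1 fell to 0.75 of its pH 7.4 level in NRK-49F, a log2 fold change of -0.42 ± 0.10 (FDR 0.00306 in edgeR and 0.00045 in DESeq2). For Ambra1, the pH effects differed by 0.91 ± 0.16 between the lines, which was called (FDR 0.000181 in edgeR and 2.14e-06 in DESeq2). The rise in NRK-52E was not called without any 1 of N1 to N7, with edgeR FDRs of 0.0121 to 0.0202. The fall in NRK-49F was not called without N10, N12 or N15, with edgeR FDRs of 0.0116 to 0.0147. With library totals the rise was not called, while the sign stayed positive.

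Uvrag encodes a Beclin partner that also acts in endosome traffic. For Uvrag in NRK-52E, the libraries gave 69.6, 70.2, 61.8 and 63.3 FPM at pH 7.4 and 52, 56.7, 50.6 and 51.4 FPM at pH 6.0. For Uvrag in NRK-49F, the libraries gave 34.5, 32.2, 34.1 and 40.4 FPM at pH 7.4 and 30.8, 26.6, 29 and 30.9 FPM at pH 6.0. Control libraries lay above acidic libraries in both lines, without overlap. Uvrag fell to 0.801 of its pH 7.4 level in NRK-52E, a log2 fold change of -0.32 ± 0.09 (FDR 0.00642 in edgeR and 0.00137 in DESeq2). Uvrag was not called in NRK-49F, where its log2 fold change was -0.27 ± 0.10 (FDR 0.0446 in edgeR and 0.0508 in DESeq2). The difference in Uvrag response was -0.06 ± 0.13 and was not called (FDR 0.722 in edgeR and 0.639 in DESeq2). The fall in NRK-52E was not called without N1, N2, N3, N6 or N7, with edgeR FDRs of 0.0118 to 0.0276.

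Becn1 encodes Beclin, a core subunit of the lipid kinase complex. In NRK-52E, Becn1 stood at 87.2, 76.4, 74.4 and 75.1 FPM at pH 7.4 and at 87.3, 84.3, 83 and 76.3 FPM at pH 6.0. In NRK-49F, Becn1 stood at 178, 170, 182 and 166 FPM at pH 7.4 and at 171, 168, 191 and 174 FPM at pH 6.0. The pH groups overlapped in both lines, and N1 was the highest control library of NRK-52E. Becn1 was not called in NRK-52E, where its log2 fold change was 0.09 ± 0.08 (FDR 0.349 in edgeR and 0.506 in DESeq2). Becn1 was not called in NRK-49F, where its log2 fold change was 0.02 ± 0.08 (FDR 0.884 in edgeR and 0.822 in DESeq2). Rubcn encodes Rubicon, an inhibitor of the complex. Levels of Rubcn in NRK-52E were 23.8, 33.1, 32.5 and 27.4 FPM at pH 7.4 and 45.8, 65, 54 and 22.6 FPM at pH 6.0. Levels of Rubcn in NRK-49F were 19.9, 16.3, 8.47 and 22.6 FPM at pH 7.4 and 28.2, 23.1, 20 and 23 FPM at pH 6.0. N8 was lower than every control library of NRK-52E, and N13 was the lowest of all 8 in NRK-49F. Rubcn was not called in NRK-52E, where its log2 fold change was 0.69 ± 0.26 (FDR 0.0352 in edgeR and 0.0253 in DESeq2). Without N8, Rubcn was called higher in NRK-52E at 0.92, with an edgeR FDR of 0.000178. Rubcn was not called in NRK-49F, where its log2 fold change was 0.48 ± 0.23 (FDR 0.0971 in edgeR and 0.0705 in DESeq2).

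For the other nucleation members, neither line gave a call with TMM scaling. The kinase subunit Pik3c3 had log2 values of -0.04 (NRK-52E) and 0.05 (NRK-49F). Its regulatory subunit Pik3r4 had -0.32 and -0.04, and was called in NRK-52E without N4 at -0.44 and with library totals in both tools. Atg14, which directs the complex to the phagophore, had -0.33 and -0.37, and was called in NRK-49F without N13 at -0.44 and in NRK-52E with totals in both tools.

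Lipid supply and PI3P effector genes bring membrane to the phagophore or read its PI3P. Of 6 members, 5 rose (83.3%) and 1 fell (16.7%) in NRK-52E (all genes 28.2% and 28.5%), and 4 rose (66.7%) and 0 fell in NRK-49F (all genes 18.4% and 19.4%). The median log2 fold changes were 0.86 and 0.52, and over all genes 0.00 and -0.00. The rises and medians in both lines include Atg9b, which passed the low-count filter through its acidic libraries, as described below. With totals in both tools, 4 rose and 1 fell in NRK-52E (all genes 2900 and 4815 of 13735). Wipi1 encodes a PI3P-binding propeller protein. Levels of Wipi1 in NRK-52E were 9.09, 9.25, 9.82 and 7.36 FPM at pH 7.4 and 27, 29.4, 26.8 and 19.5 FPM at pH 6.0. Levels of Wipi1 in NRK-49F were 39.3, 36.1, 31.3 and 36 FPM at pH 7.4 and 70.3, 59.5, 53.1 and 45.2 FPM at pH 6.0. Every acidic library exceeded every control library in both lines, with N8 and N16 the lowest acidic ones. Wipi1 rose 2.91-fold in NRK-52E, a log2 fold change of 1.54 ± 0.16 (FDR 8.63e-06 in edgeR and 5.61e-19 in DESeq2). Wipi1 rose 1.6-fold in NRK-49F, a log2 fold change of 0.68 ± 0.13 (FDR 0.00115 in edgeR and 2.13e-05 in DESeq2). For Wipi1, the pH effects differed by 0.85 ± 0.21 between the lines, which was called (FDR 0.00239 in edgeR and 0.000676 in DESeq2). Without N3 the difference was not called, at 0.72 with an edgeR FDR of 0.0143.

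Wipi2 encodes the related propeller protein that brings the conjugation complex to the phagophore. In NRK-52E, Wipi2 stood at 43.1, 41.5, 40.1 and 37.6 FPM at pH 7.4 and at 94.4, 92.9, 93.4 and 62.3 FPM at pH 6.0. In NRK-49F, Wipi2 stood at 28.9, 23, 21.9 and 29.3 FPM at pH 7.4 and at 40.1, 39.2, 37.3 and 33.1 FPM at pH 6.0. Acidic libraries again lay above control libraries in both lines, and N8 was far below the other acidic NRK-52E libraries. Wipi2 rose 2.13-fold in NRK-52E, a log2 fold change of 1.09 ± 0.13 (FDR 2.78e-05 in edgeR and 6.15e-12 in DESeq2). Wipi2 rose 1.45-fold in NRK-49F, a log2 fold change of 0.54 ± 0.12 (FDR 0.00255 in edgeR and 0.000218 in DESeq2). The difference in Wipi2 response was 0.54 ± 0.19 and was not called (FDR 0.0215 in edgeR and 0.0187 in DESeq2). Without N8 the difference was called at 0.67, with an edgeR FDR of 0.001. Without N10 the rise in NRK-49F was not called, at 0.49 with an edgeR FDR of 0.0108.

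Atg2a encodes a lipid transfer protein that feeds the growing phagophore. For Atg2a in NRK-52E, the libraries gave 68.3, 74, 70.5 and 63.7 FPM at pH 7.4 and 35.3, 39.9, 32 and 35.6 FPM at pH 6.0. For Atg2a in NRK-49F, the libraries gave 69.1, 65.4, 56.7 and 87.8 FPM at pH 7.4 and 68.6, 55.3, 51.6 and 53.5 FPM at pH 6.0. In NRK-52E all acidic libraries were far below all control libraries, while in NRK-49F the groups overlapped and N14 was highest. Atg2a fell to 0.52 of its pH 7.4 level in NRK-52E, a log2 fold change of -0.94 ± 0.10 (FDR 1.03e-05 in edgeR and 1.08e-17 in DESeq2). Atg2a was not called in NRK-49F, where its log2 fold change was -0.29 ± 0.13 (FDR 0.0921 in edgeR and 0.119 in DESeq2). For Atg2a, the pH effects differed by -0.67 ± 0.18 between the lines, which was called (FDR 0.00439 in edgeR and 0.000882 in DESeq2). Without N2, N7, N10 or N11 the difference was not called, with edgeR FDRs of 0.0105 to 0.0113. Its paralogue Atg2b rose 1.32-fold in NRK-52E (FDR 0.00703 in edgeR and 0.00384 in DESeq2) and 1.42-fold in NRK-49F (FDR 0.00235 in edgeR and 0.000165 in DESeq2), with overlapping groups in NRK-52E. The rise of Atg2b in NRK-52E was not called without any 1 of N1 to N7, with edgeR FDRs of 0.013 to 0.0271.

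Atg9b encodes a lipid scramblase and was read at few counts. Levels of Atg9b in NRK-52E were 0, 0.165, 0.252 and 0.478 FPM at pH 7.4 and 1.41, 3.11, 3.09 and 1.72 FPM at pH 6.0. Levels of Atg9b in NRK-49F were 0.346, 0.102, 0.0662 and 0.557 FPM at pH 7.4 and 0.712, 0.795, 1.71 and 1.78 FPM at pH 6.0. Acidic libraries lay above control libraries in both lines, with N1 at 0. The counts behind these levels were 0, 4, 6 and 10 at pH 7.4 and 23, 71, 77 and 37 at pH 6.0 in NRK-52E. In NRK-49F they were 6, 2, 1 and 14, then 16, 12, 53 and 57. The counts summed to 20 and 208 in NRK-52E and to 23 and 138 in NRK-49F. Divided by the TMM-scaled library totals, the sum at pH 6.0 was 11 times that at pH 7.4 in NRK-52E (95% interval 6.92 to 18.3) and 4.6 times in NRK-49F (2.94 to 7.5), with intervals that cover counting error alone. The fitted log2 fold changes of 3.38 ± 0.57 (FDR 0.000328 in edgeR and 1.17e-08 in DESeq2) and 2.14 ± 0.54 (FDR 0.0054 in edgeR and 0.00153 in DESeq2) depend on the prior count. At pH 7.4 the counts were too low for the filter, so Atg9b was tested in each line through its acidic libraries. Its calls, included in the counts of rises above, thus rest on a filter passed through the group in which it was high. The difference in Atg9b response was 1.23 ± 0.88 and was not called (FDR 0.254 in edgeR and 0.255 in DESeq2). The rise in NRK-49F was not called without N9, N10, N13, N15 or N16, with edgeR FDRs of 0.0114 to 0.0186. Atg9a, the broadly expressed paralogue, rose 1.54-fold in NRK-52E (FDR 0.000139 in edgeR and 7.87e-08 in DESeq2) and had a value of 0.13 in NRK-49F. The Atg9a difference, 0.48, was not called (edgeR FDR 0.0234), but was called without N8, N11 or N13 at 0.55 to 0.58.

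Conjugation genes encode the enzymes and carriers that attach Atg8 proteins to lipid. Of 10 members, 5 rose (50%) and 1 fell (10%) in NRK-52E (all genes 28.2% and 28.5%), and 2 rose (20%) and 1 fell (10%) in NRK-49F (all genes 18.4% and 19.4%). Totals in both tools gave 4 rises and 2 falls in NRK-52E (all genes 2900 and 4815 of 13735). Atg12 encodes the ubiquitin-like protein that is joined to Atg5. Levels of Atg12 in NRK-52E were 31.2, 28.7, 32.3 and 31.3 FPM at pH 7.4 and 85.9, 76.5, 84.9 and 62.9 FPM at pH 6.0. Levels of Atg12 in NRK-49F were 49.1, 48.2, 46.8 and 41.3 FPM at pH 7.4 and 41.8, 48.3, 43.8 and 53.2 FPM at pH 6.0. All acidic NRK-52E libraries stood far above the controls, while the NRK-49F groups overlapped. Atg12 rose 2.53-fold in NRK-52E, a log2 fold change of 1.34 ± 0.11 (FDR 2.04e-06 in edgeR and 1.2e-24 in DESeq2). Atg12 was not called in NRK-49F, where its log2 fold change was 0.01 ± 0.11 (FDR 0.93 in edgeR and 0.892 in DESeq2). For Atg12, the pH effects differed by 1.31 ± 0.16 between the lines, which was called (FDR 2.14e-06 in edgeR and 5.76e-14 in DESeq2).

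Atg5 encodes the acceptor of Atg12. In NRK-52E, Atg5 stood at 27.4, 23.8, 27.1 and 24.6 FPM at pH 7.4 and at 41.6, 32.7, 36.6 and 40.2 FPM at pH 6.0. In NRK-49F, Atg5 stood at 35.4, 34.5, 47.1 and 29 FPM at pH 7.4 and at 34.8, 39.8, 37.5 and 37.1 FPM at pH 6.0. The groups were separate in NRK-52E and overlapped in NRK-49F, where N13 was the highest and N14 the lowest. Atg5 rose 1.48-fold in NRK-52E, a log2 fold change of 0.57 ± 0.11 (FDR 0.00108 in edgeR and 1.06e-05 in DESeq2). Atg5 was not called in NRK-49F, where its log2 fold change was 0.03 ± 0.14 (FDR 0.87 in edgeR and 0.846 in DESeq2). The difference in Atg5 response was 0.52 ± 0.18 and was not called (FDR 0.0221 in edgeR and 0.0202 in DESeq2). Without N14 the difference was called at 0.61, with an edgeR FDR of 0.00599. With library totals the rise in NRK-52E was not called, with its sign unchanged.

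Atg4c encodes a protease that processes Atg8 proteins. For Atg4c in NRK-52E, the libraries gave 6.07, 6.94, 7.51 and 6.5 FPM at pH 7.4 and 5.08, 4.17, 5.06 and 5.35 FPM at pH 6.0. For Atg4c in NRK-49F, the libraries gave 11.1, 8.89, 8.07 and 7.44 FPM at pH 7.4 and 14, 13.1, 15.3 and 19.2 FPM at pH 6.0. Acidic libraries were all below control libraries in NRK-52E and all above them in NRK-49F. Atg4c was not called in NRK-52E, where its log2 fold change was -0.45 ± 0.16 (FDR 0.0307 in edgeR and 0.0136 in DESeq2). With totals in both tools the Atg4c fall in NRK-52E was called. Atg4c rose 1.74-fold in NRK-49F, a log2 fold change of 0.80 ± 0.17 (FDR 0.00179 in edgeR and 2.69e-05 in DESeq2). For Atg4c, the pH effects differed by -1.26 ± 0.24 between the lines, which was called (FDR 0.000261 in edgeR and 3.7e-07 in DESeq2). Of the related protease genes, Atg4b rose 2-fold in NRK-52E (FDR 9.29e-06 in edgeR and 3.16e-17 in DESeq2). In NRK-49F the log2 fold change of Atg4b was 0.32, not called, and the difference was 0.67, called (FDR 0.00103 in edgeR and 4.44e-05 in DESeq2). Atg4d fell to 0.719 of its control level in NRK-52E (FDR 0.00785 in edgeR and 0.00179 in DESeq2), had a value of -0.17 in NRK-49F, and its difference of -0.32 was not called (edgeR FDR 0.158). The Atg4d fall was not called without any 1 of N1 to N7, with edgeR FDRs of 0.0121 to 0.0246.

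Atg10 encodes the conjugating enzyme for Atg12. Levels of Atg10 in NRK-52E were 10.03, 11.40, 9.94 and 10.52 FPM at pH 7.4 and 6.06, 7.28, 8.71 and 12.43 FPM at pH 6.0. Levels of Atg10 in NRK-49F were 10.97, 9.81, 12.04 and 10.90 FPM at pH 7.4 and 4.49, 6.23, 4.45 and 7.77 FPM at pH 6.0. In NRK-52E the acidic libraries ranged from below to above the controls, with N8 the highest, and in NRK-49F they were all below. Atg10 was not called in NRK-52E, where its log2 fold change was -0.26 ± 0.22 (FDR 0.293 in edgeR and 0.339 in DESeq2). Atg10 fell to 0.525 of its pH 7.4 level in NRK-49F, a log2 fold change of -0.93 ± 0.20 (FDR 0.00197 in edgeR and 3.97e-05 in DESeq2). The difference in Atg10 response was 0.65 ± 0.30 and was not called (FDR 0.0766 in edgeR and 0.0697 in DESeq2).

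Among the remaining conjugation members, Atg3, the conjugating enzyme for Atg8 proteins, rose 1.46-fold in NRK-52E (FDR 0.000351 in edgeR and 7.79e-08 in DESeq2) and had a value of -0.16 in NRK-49F. The Atg3 difference of 0.69 was called (FDR 0.002 in edgeR and 0.000502 in DESeq2), but not without N3, where it was 0.54 with an edgeR FDR of 0.0172. Atg16l1, the scaffold of the Atg12 complex, rose in NRK-52E by 0.60 ± 0.10 log2 (FDR 0.000387 in edgeR and 1.73e-06 in DESeq2). In NRK-49F its value was 0.29, and the difference of 0.30 was not called (edgeR FDR 0.0901). Its paralogue Atg16l2 rose 1.5-fold in NRK-49F (FDR 0.00621 in edgeR and 0.00104 in DESeq2), with 0.24 in NRK-52E and a difference of -0.36, not called (edgeR FDR 0.165). The Atg16l2 rise was not called without N9, N10, N11, N12, N13, N15 or N16, with edgeR FDRs of 0.01 to 0.0243. Atg7, the activating enzyme, had values of -0.20 and 0.16, neither called.

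The Atg8 family encodes the ubiquitin-like proteins placed on the phagophore, in an LC3 and a GABARAP branch. Of 5 members, 3 rose (60%) and 0 fell in NRK-52E (all genes 28.2% and 28.5%), and 1 rose (20%) and 3 fell (60%) in NRK-49F (all genes 18.4% and 19.4%). Gabarapl1 rose in both lines and is a GABARAP-branch gene. Levels of Gabarapl1 in NRK-52E were 162, 153, 141 and 156 FPM at pH 7.4 and 372, 314, 316 and 315 FPM at pH 6.0. Levels of Gabarapl1 in NRK-49F were 385, 367, 349 and 389 FPM at pH 7.4 and 604, 568, 556 and 471 FPM at pH 6.0. Acidic libraries lay above control libraries in both lines, and N3 was the highest of NRK-52E. Gabarapl1 rose 2.17-fold in NRK-52E, a log2 fold change of 1.12 ± 0.09 (FDR 1.51e-06 in edgeR and 2.1e-28 in DESeq2). Gabarapl1 rose 1.48-fold in NRK-49F, a log2 fold change of 0.56 ± 0.10 (FDR 0.000502 in edgeR and 2.41e-07 in DESeq2). For Gabarapl1, the pH effects differed by 0.54 ± 0.13 between the lines, which was called (FDR 0.00217 in edgeR and 0.000135 in DESeq2). Without N3 the difference was not called, at 0.37 with an edgeR FDR of 0.0245.

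Gabarap gives its name to the branch. In NRK-52E, Gabarap stood at 252, 215, 194 and 242 FPM at pH 7.4 and at 368, 290, 314 and 411 FPM at pH 6.0. In NRK-49F, Gabarap stood at 516, 508, 653 and 540 FPM at pH 7.4 and at 404, 422, 414 and 378 FPM at pH 6.0. The acidic libraries were all higher than the controls in NRK-52E and all lower in NRK-49F. Gabarap rose 1.55-fold in NRK-52E, a log2 fold change of 0.63 ± 0.13 (FDR 0.00135 in edgeR and 6.38e-05 in DESeq2). Gabarap fell to 0.729 of its pH 7.4 level in NRK-49F, a log2 fold change of -0.46 ± 0.11 (FDR 0.00347 in edgeR and 0.000224 in DESeq2). The difference in Gabarap response was 1.07 ± 0.17 and was called (FDR 4.23e-05 in edgeR and 1.82e-08 in DESeq2). Without N15 the fall in NRK-49F was not called, at -0.46 with an edgeR FDR of 0.0114. Gabarapl2 is the third gene of the branch. Levels of Gabarapl2 in NRK-52E were 127, 111, 110 and 118 FPM at pH 7.4 and 122, 93.4, 106 and 156 FPM at pH 6.0. Levels of Gabarapl2 in NRK-49F were 138, 131, 159 and 112 FPM at pH 7.4 and 71.9, 83.3, 84.5 and 102 FPM at pH 6.0. The groups overlapped in NRK-52E, with N8 the highest and N4 the lowest, and were separate in NRK-49F. Gabarapl2 was not called in NRK-52E, where its log2 fold change was 0.05 ± 0.15 (FDR 0.798 in edgeR and 0.897 in DESeq2). Gabarapl2 fell to 0.632 of its pH 7.4 level in NRK-49F, a log2 fold change of -0.66 ± 0.13 (FDR 0.00104 in edgeR and 1.56e-05 in DESeq2). For Gabarapl2, the pH effects differed by 0.69 ± 0.20 between the lines, which was called (FDR 0.00859 in edgeR and 0.00564 in DESeq2). That difference was not called without N2, N3, N5, N6, N8, N9, N10, N11, N12, N13 or N15, with edgeR FDRs of 0.0131 to 0.0384.

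The LC3 branch was read as Map1lc3a and Map1lc3b. For Map1lc3a in NRK-52E, the libraries gave 71.5, 60.8, 58.6 and 64.6 FPM at pH 7.4 and 159, 127, 132 and 145 FPM at pH 6.0. For Map1lc3a in NRK-49F, the libraries gave 88, 85.8, 107 and 96.6 FPM at pH 7.4 and 104, 110, 125 and 94.2 FPM at pH 6.0. All acidic libraries exceeded all controls for Map1lc3a in NRK-52E, and the groups overlapped in NRK-49F. Map1lc3a rose 2.22-fold in NRK-52E, a log2 fold change of 1.15 ± 0.10 (FDR 3.28e-06 in edgeR and 1.58e-21 in DESeq2). Map1lc3a was not called in NRK-49F, where its log2 fold change was 0.20 ± 0.11 (FDR 0.146 in edgeR and 0.153 in DESeq2). The difference in Map1lc3a response was 0.94 ± 0.15 and was called (FDR 5.4e-05 in edgeR and 4.49e-08 in DESeq2). Map1lc3b, the LC3 gene most used as an autophagosome marker at the protein level, is the other. For Map1lc3b in NRK-52E, the libraries gave 205, 177, 179 and 187 FPM at pH 7.4 and 209, 159, 169 and 207 FPM at pH 6.0. For Map1lc3b in NRK-49F, the libraries gave 215, 209, 237 and 214 FPM at pH 7.4 and 115, 118, 120 and 105 FPM at pH 6.0. In NRK-52E the acidic libraries lay on both sides of the controls, while in NRK-49F all were far below them. Map1lc3b was not called in NRK-52E, where its log2 fold change was 0.00 ± 0.11 (FDR 0.974 in edgeR and 0.997 in DESeq2). Map1lc3b fell to 0.523 of its pH 7.4 level in NRK-49F, a log2 fold change of -0.94 ± 0.09 (FDR 4.63e-06 in edgeR and 2.25e-21 in DESeq2). For Map1lc3b, the pH effects differed by 0.93 ± 0.14 between the lines, which was called (FDR 2.31e-05 in edgeR and 8.38e-10 in DESeq2).

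All 5 differences between the pH effects were positive and called for the Atg8 family, with a median of 0.93, while 19.3% of all genes had a called positive difference and the median over all genes was -0.01. With library totals all 5 stayed positive, and Map1lc3a (0.70), Map1lc3b (0.68) and Gabarap (0.82) were still called. Gabarapl1 (0.30, edgeR FDR 0.052) and Gabarapl2 (0.44, edgeR FDR 0.0572) were then not called. Within NRK-52E, the uncalled values of Map1lc3b and Gabarapl2 moved to -0.21 and -0.17 with library totals, while the other 3 stayed positive.

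**Figure D2:**
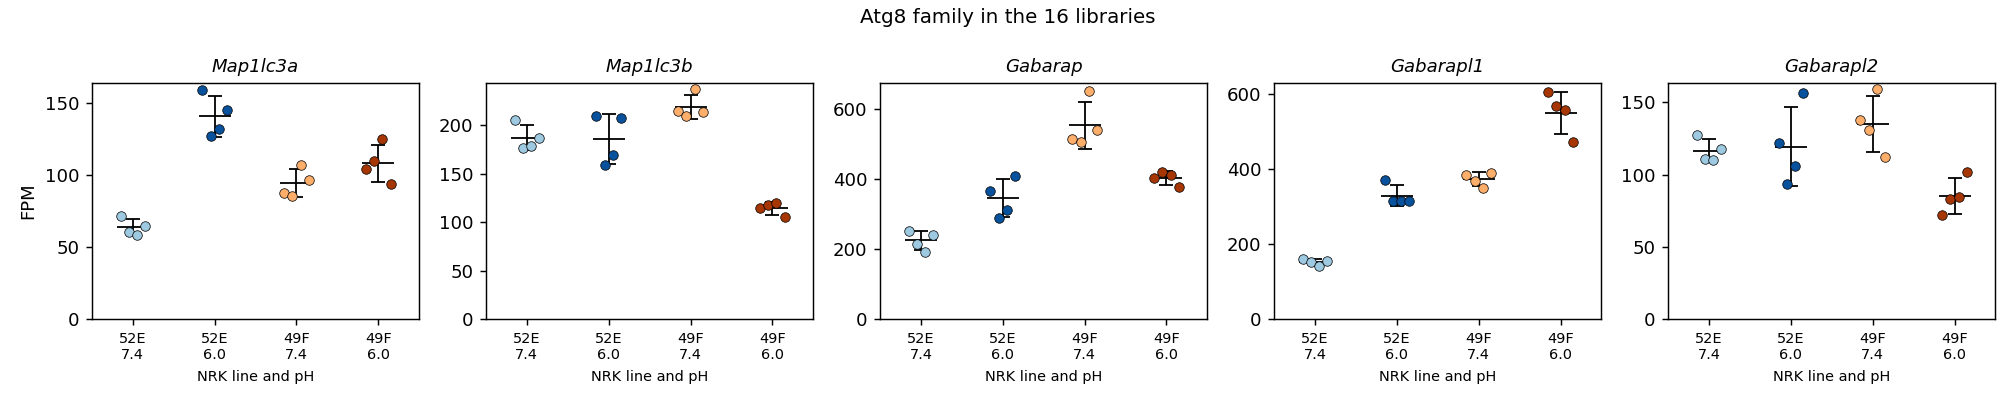
Levels in FPM (vertical axes) of the 5 Atg8 family genes in the 16 libraries (points), by line and pH (horizontal axes), with a horizontal mark for the mean of 4 and bars for 1 SD. Map1lc3b spans 159 to 209 FPM in NRK-52E at pH 6.0 and 105 to 120 FPM in NRK-49F at pH 6.0.

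Receptor and selective autophagy genes include receptors that link cargo to Atg8 proteins, and also the kinase gene Pink1 and the scaffold gene Wdfy3. Of 6 members, 4 rose (66.7%) and 0 fell in NRK-52E (all genes 28.2% and 28.5%). In NRK-49F, 1 rose (16.7%) and 0 fell (all genes 18.4% and 19.4%). Under totals in both tools, 3 rose and 1 fell in NRK-52E (all genes 2900 and 4815 of 13735). In NRK-49F 2 rose under that setting (all genes 2662 rises and 2346 falls of 13339). Nbr1, a receptor for ubiquitinated cargo, rose 1.72-fold in NRK-52E (FDR 2.54e-05 in edgeR and 2.28e-13 in DESeq2) and 1.47-fold in NRK-49F (FDR 0.00031 in edgeR and 7.76e-09 in DESeq2). Optineurin, encoded by Optn, is a receptor in mitophagy and rose 1.46-fold in NRK-52E (FDR 0.00017 in edgeR and 6.58e-09 in DESeq2). In NRK-49F, Optn had a value of 0.30 with FDRs of 0.012 in edgeR and 0.00359 in DESeq2, and was called without N11 at 0.36 and with library totals. The Optn difference of 0.24 was not called (edgeR FDR 0.102). Tax1bp1, another ubiquitin-binding receptor, rose 1.55-fold in NRK-52E (FDR 0.000143 in edgeR and 1.03e-08 in DESeq2), had 0.00 in NRK-49F, and its difference of 0.62 was called (FDR 0.000734 in edgeR and 2.61e-05 in DESeq2).

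Pink1 encodes the kinase that labels damaged mitochondria for mitophagy. It rose 1.36-fold in NRK-52E (FDR 0.00489 in edgeR and 0.00173 in DESeq2), had -0.12 in NRK-49F, and its difference of 0.54 was called (FDR 0.00772 in edgeR and 0.00584 in DESeq2). The Pink1 rise was not called without N2, N4, N5 or N6, with edgeR FDRs of 0.0104 to 0.0249. Its difference was not called without N2, N3, N4, N5, N6, N8, N9, N10, N13, N15 or N16, with edgeR FDRs of 0.0105 to 0.0301. Calcoco1, a receptor for endoplasmic reticulum, had values of -0.23 and -0.14, and was called in NRK-52E without N8 at -0.23 and with library totals. Wdfy3, a scaffold for aggregate clearance, had values of -0.83 and -0.30, and was called at -1.11 in NRK-52E without N4 and at -0.49 in NRK-49F without N13.

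Tethering and fusion genes act when the autophagosome meets the lysosome. Of 4 members, 0 rose and 2 fell (50%) in NRK-52E (all genes 28.2% and 28.5%), and 1 rose (25%) and 0 fell in NRK-49F (all genes 18.4% and 19.4%). Vps18 encodes a core subunit of the tethering complexes HOPS and CORVET. Levels of Vps18 in NRK-52E were 34.4, 36.8, 33.4 and 34.6 FPM at pH 7.4 and 13.3, 17.3, 17.9 and 18.5 FPM at pH 6.0. Levels of Vps18 in NRK-49F were 39.3, 40, 36.6 and 52 FPM at pH 7.4 and 33.3, 31.3, 36 and 32.2 FPM at pH 6.0. Acidic libraries lay below control libraries in both lines, by a wide margin in NRK-52E. Vps18 fell to 0.487 of its pH 7.4 level in NRK-52E, a log2 fold change of -1.04 ± 0.13 (FDR 3.12e-05 in edgeR and 1.07e-15 in DESeq2). Vps18 was not called in NRK-49F, where its log2 fold change was -0.34 ± 0.12 (FDR 0.0266 in edgeR and 0.027 in DESeq2). For Vps18, the pH effects differed by -0.71 ± 0.17 between the lines, which was called (FDR 0.00218 in edgeR and 0.000109 in DESeq2).

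Tecpr1 encodes a protein that binds the Atg12 complex and PI3P at autolysosomes. In NRK-52E, Tecpr1 stood at 33.9, 36.3, 38.2 and 32.9 FPM at pH 7.4 and at 17, 21.1, 17.2 and 14.8 FPM at pH 6.0. In NRK-49F, Tecpr1 stood at 58.9, 59.5, 41.8 and 78.5 FPM at pH 7.4 and at 89.5, 77, 111 and 107 FPM at pH 6.0. In NRK-52E all acidic libraries were below all controls, and in NRK-49F the groups overlapped, since N14 exceeded N12. Tecpr1 fell to 0.499 of its pH 7.4 level in NRK-52E, with a standard error of 0.13 log2 (FDR 4.14e-05 in edgeR and 9.01e-13 in DESeq2). Tecpr1 rose 1.61-fold in NRK-49F, a log2 fold change of 0.69 ± 0.16 (FDR 0.00394 in edgeR and 0.000308 in DESeq2). The difference in Tecpr1 response was -1.70 ± 0.23 and was called (FDR 8.77e-06 in edgeR and 7.39e-12 in DESeq2). The rise in NRK-49F was not called without N9, N10, N15 or N16, with edgeR FDRs of 0.0109 to 0.0147. Stx17, a fusion protein of the autophagosome, had values of 0.64 and 0.21, neither called, and was called in NRK-52E without N8 at 0.69. Vps11, another core subunit of both tethers, had 0.24 and 0.07, neither called.

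**Figure D3:**
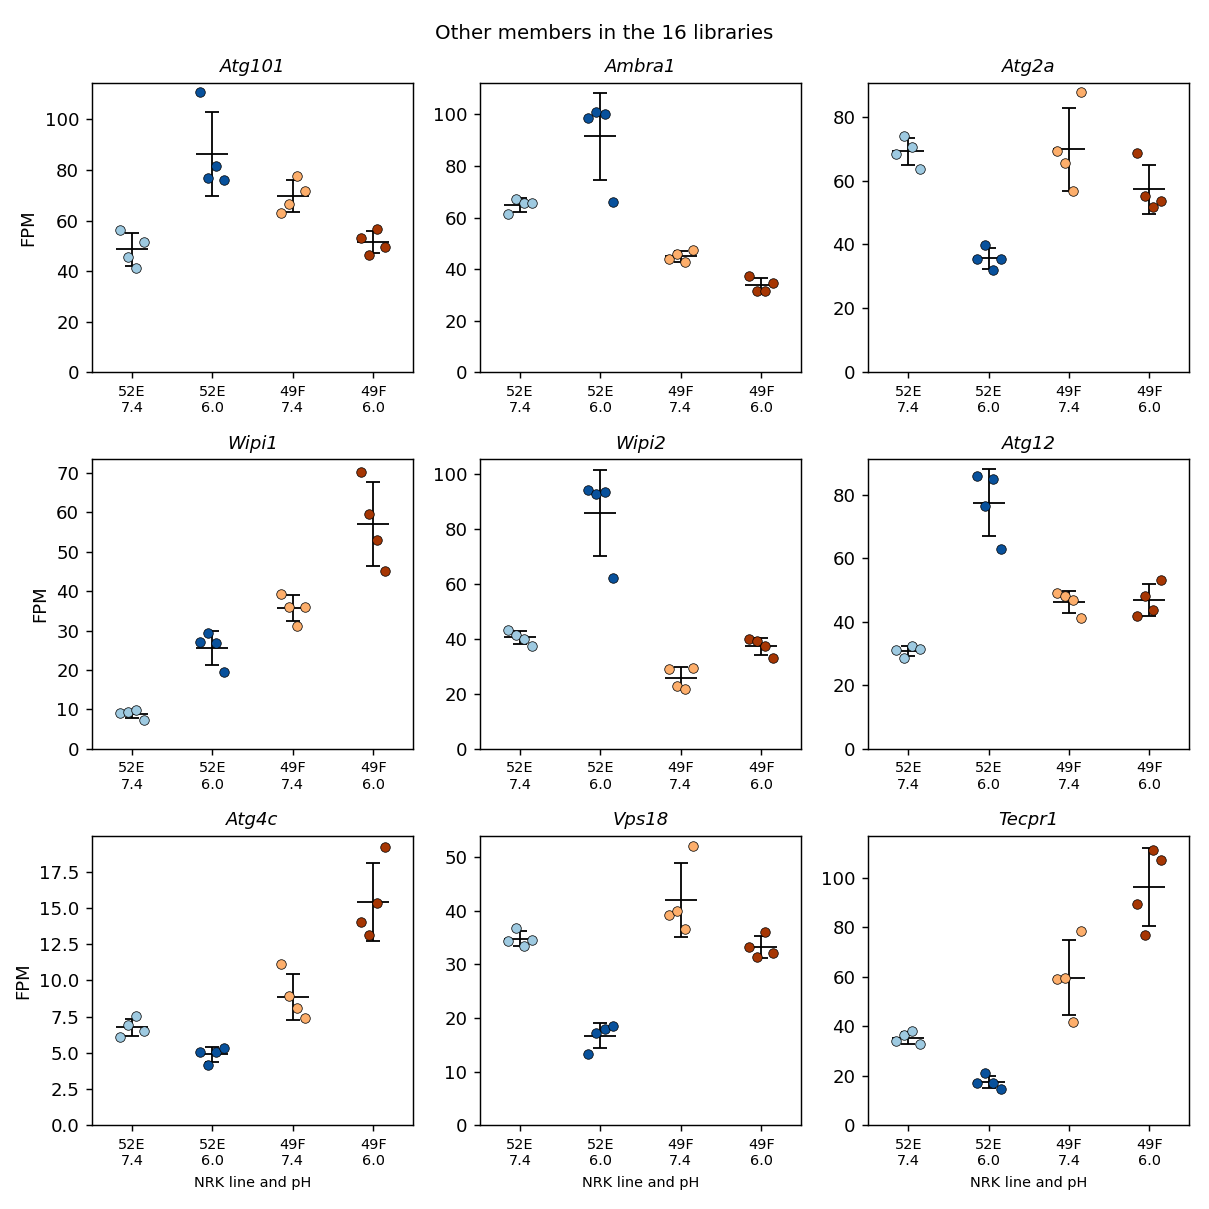
Levels in FPM (vertical axes) of 9 further members in the 16 libraries (points), by line and pH (horizontal axes), with a horizontal mark for the mean of 4 and bars for 1 SD. Tecpr1 spans 14.8 to 21.1 FPM in NRK-52E at pH 6.0 and 77 to 111 FPM in NRK-49F at pH 6.0.

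The lines were also compared with each other at each pH, in comparisons that share their libraries with those above. At pH 7.4, 11 of the 42 members tested were higher in NRK-52E (26.2%) and 14 were lower (33.3%), while 33.3% of 14026 genes tested were higher and 33.3% lower. The median log2 fold change was -0.15 over the members and 0.03 over all genes. At pH 6.0, 13 of 43 were higher (30.2%) and 13 lower (30.2%), while 28.6% of 13796 genes were higher and 31.3% lower. The median was then 0.20 over the members and -0.03 over all genes. Atg9b was not tested at pH 7.4, where its counts were too low for the filter. With library totals the median of all genes moved to 0.34 at pH 7.4 and 0.12 at pH 6.0, and that of the members relative to all genes was -0.18 at pH 7.4. Totals in both tools gave 14 members higher and 7 lower at pH 7.4, and 19 and 11 at pH 6.0. The higher share of all called genes at pH 7.4 went from 50% to 59.7% with totals in edgeR and 65.7% with totals in both tools. At pH 6.0 that share went from 47.7% to 53.7% and 55%. At pH 7.4, 18 of 25 calls were kept with totals, and those of Atg101, Pik3c3, Atg12, Map1lc3a, Nbr1, Pink1 and Tecpr1 were lost. At pH 6.0, 24 of 26 were kept, and those of Ulk2 and Nbr1 were lost. Totals in both tools added Ulk2, Atg9a and Stx17 as higher at pH 7.4, and Atg2b, Atg3, Atg4b, Map1lc3a, Gabarapl2 and Calcoco1 as higher at pH 6.0.

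Among 42 members tested at both pH values, 7 were higher in NRK-52E at both (16.7%), against 18.6% of 13348 genes. They were Ulk1, Atg13, Uvrag, Ambra1, Rubcn, Wipi2 and Tax1bp1. Uvrag stood at 66.2 FPM on average in NRK-52E and 35.3 FPM in NRK-49F at pH 7.4, a log2 fold change of 0.99 ± 0.09 (FDR 1.24e-06 in edgeR and 1.25e-23 in DESeq2). Rubcn was 1.83-fold higher at pH 7.4 (FDR 0.00555 in edgeR and 0.000447 in DESeq2) and 1.99-fold higher at pH 6.0 (FDR 0.00401 in edgeR and 0.000319 in DESeq2). The Rubcn calls were lost without N2, N5, N6 or N10 at pH 7.4 and without N3, N4, N7, N12, N15 or N16 at pH 6.0, with edgeR FDRs of 0.0108 to 0.0184 and 0.0102 to 0.0162. The Atg13 calls were lost without N2, N5, N6 or N9 at pH 7.4 (edgeR FDRs of 0.0118 to 0.0166) and without N3, N4, N7, N12, N15 or N16 at pH 6.0 (0.0107 to 0.0201). Ambra1 was 1.53-fold higher at pH 7.4 (FDR 1.47e-05 in edgeR and 9.79e-15 in DESeq2) and 2.71-fold higher at pH 6.0 (FDR 2.61e-06 in edgeR and 2.04e-18 in DESeq2).

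Another 9 members were lower in NRK-52E at both pH values (21.4%), against 21.2% of all genes tested at both. They were Becn1, Pik3c3, Wipi1, Atg7, Atg16l2, Gabarapl1, Optn, Nbr1 and Tecpr1. Wipi1 had the most negative value at pH 7.4, at -1.92 ± 0.12 (FDR 3.25e-08 in edgeR and 1.76e-53 in DESeq2). Becn1 in NRK-52E was 0.476 of its NRK-49F level at pH 7.4 (FDR 9.19e-08 in edgeR and 2.56e-39 in DESeq2) and 0.47 at pH 6.0 (FDR 7.15e-07 in edgeR and 8.52e-27 in DESeq2). The Tecpr1 value went from -0.67 ± 0.15 at pH 7.4 (FDR 0.00193 in edgeR and 0.000113 in DESeq2) to -2.45 ± 0.16 at pH 6.0 (FDR 3.77e-08 in edgeR and 3.78e-47 in DESeq2). The Nbr1 call at pH 6.0 was lost without N3, N7, N8, N11, N12 or N15, with edgeR FDRs of 0.0113 to 0.0203.

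With TMM scaling, Atg101 and Atg12 (4.76% of members, against 1.74% of all genes) were lower in NRK-52E at pH 7.4 and higher at pH 6.0. For Atg101 the values were -0.44 ± 0.11 (FDR 0.00297 in edgeR and 0.000785 in DESeq2) and 0.75 ± 0.14 (FDR 0.000387 in edgeR and 8.9e-07 in DESeq2). For Atg12 they were -0.50 ± 0.09 (FDR 0.000224 in edgeR and 7.03e-07 in DESeq2) and 0.73 ± 0.13 (FDR 0.000285 in edgeR and 4.11e-07 in DESeq2). Without N2 the Atg101 call at pH 7.4 was lost, with an edgeR FDR of 0.0109. With library totals neither gene was called at pH 7.4, at -0.13 for Atg101 (edgeR FDR 0.238) and -0.19 for Atg12 (0.062), while both calls at pH 6.0 stayed. Called at pH 7.4 alone were Pik3r4, Atg2b, Atg4d and Calcoco1 as higher and Map1lc3a, Gabarap and Pink1 as lower, and called at pH 6.0 alone were Rb1cc1, Atg9a, Map1lc3b and Stx17 as higher and Ulk2, Atg2a, Atg4c and Vps18 as lower. The Pink1 call at pH 7.4 was lost without N2 (edgeR FDR 0.0118). At pH 6.0 the Rb1cc1 call was lost without N3, N7, N12, N15 or N16 (edgeR FDRs of 0.014 to 0.0323) and the Ulk2 call without N3, N7, N11, N12 or N15 (0.0106 to 0.0228). Single libraries also added calls: Atg9a (0.39), Atg3 (-0.41) and Atg5 (-0.52) at pH 7.4 without N14. At pH 6.0 those added were Atg2b (0.38) and Atg4b (0.41) without N8, Gabarapl2 (0.61) without N4, and Map1lc3a (0.45) without N4 or N15.

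Summed over the 43 members, mean levels in NRK-52E were 3081 ± 39.5 (SD) and 4074 ± 179 FPM in control and acidic medium, with 4 libraries each. The NRK-49F sums were 3832 ± 42.9 and 3943 ± 170 FPM. With library totals the sums were 3624 and 4177 FPM in NRK-52E, and 3438 and 3646 FPM in NRK-49F. The order of the lines at pH 7.4 thus reversed, and the rise in NRK-52E was smaller. These sums were not tested.

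Some members share genome positions with other genes, by RefSeq annotation of GRCr8 used for names alone. The span of 17 of 43 members overlapped that of another gene, and for 7 the other gene was protein-coding. The counting strand is not named and reads with several alignments were counted, so how far these genes share reads was not tested. Atg9b overlaps Nos3, which stood at 0.372 and 2.16 FPM in NRK-52E and 0.208 and 0.882 FPM in NRK-49F at pH 7.4 and 6.0. Wipi1 overlaps Arsg, at 9.3 and 13.8 FPM in NRK-52E and 31.5 and 13.8 FPM in NRK-49F. Gabarapl2 overlaps Adat1, at 7.21 and 14.7 FPM, then 9.94 and 13.9 FPM. Pik3r4 overlaps Rpl29, at 721 and 974 FPM, then 1505 and 1142 FPM. Atg4d overlaps Kri1, at 20.7 and 20.3 FPM, then 34.8 and 32.4 FPM. For Becn1 with Cntd1 and Tecpr1 with Bhlha15, the overlapping gene averaged 0.814 FPM or less in every group.

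Promoter sequences of the members were read from RefSeq (GRCr8), from 250 bases before to 50 bases after each gene start. Of 43 members, 39 matched by symbol, and Map1lc3a, Rb1cc1, Becn1 and Atg9a did not. After the expression values were seen, 4 motifs were searched on both strands. CACGTG, the E-box of the TFEB family, was in 5 of 39 members (12.8%) and in 6.65% of all 27457 promoters. Those members were Atg14, Atg3, Atg5, Pink1 and Vps11, and 3 of them were among the 17 matched members that rose in NRK-52E (17.6%). Of these 3, the rises of Atg5 and Pink1 were not called with library totals. That of Pink1 was also lost without N2, N4, N5 or N6. TGACNNNGC, the antioxidant response motif, was in 7 of 39 (17.9%) and in 12.2% of all promoters, namely in Ulk2, Atg4b, Atg4d, Atg10, Map1lc3b, Gabarap and Vps18, and in 2 of the 17 (11.8%). Of the 6 members that fell in NRK-49F, all matched, 3 held it (50%), Atg10 with 2 matches, Map1lc3b and Gabarap, and 0 held CACGTG. Among members that fell in NRK-52E, Atg4d and Vps18 held TGACNNNGC, and no member that rose in NRK-49F did. TGACGTCA, the cyclic AMP response motif, was in 2 of 39 (5.13%), Atg5 and Atg16l2, and in 1.91% of all promoters. TGATGNAA, the amino acid response motif, was in 0 of 39 and in 3.82% of all promoters. A match describes letters and shows no binding.

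The promoters of the 3 E-box genes that rose in NRK-52E are printed with each CACGTG in capitals, to show their positions near the start. Atg3 (chr11:69159231-69159530, minus strand) held CACGTG 39 and 16 bases before the start. Atg5 (chr20:49380585-49380884, plus strand) held it 19 bases before the start. Pink1 (chr5:155825901-155826200, minus strand) held it 161 and 98 bases before the start.
Atg3: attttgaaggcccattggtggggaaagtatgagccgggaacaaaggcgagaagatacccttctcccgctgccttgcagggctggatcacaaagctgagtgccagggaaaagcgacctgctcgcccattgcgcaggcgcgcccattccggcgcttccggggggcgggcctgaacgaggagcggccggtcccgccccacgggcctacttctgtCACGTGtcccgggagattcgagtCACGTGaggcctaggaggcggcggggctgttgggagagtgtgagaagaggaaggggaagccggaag
Atg5: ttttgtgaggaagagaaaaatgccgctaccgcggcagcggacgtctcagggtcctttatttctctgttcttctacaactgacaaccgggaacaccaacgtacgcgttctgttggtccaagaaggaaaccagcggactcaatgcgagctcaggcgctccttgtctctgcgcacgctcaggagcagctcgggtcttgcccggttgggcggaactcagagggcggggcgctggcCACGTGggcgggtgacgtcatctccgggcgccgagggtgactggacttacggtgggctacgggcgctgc
Pink1: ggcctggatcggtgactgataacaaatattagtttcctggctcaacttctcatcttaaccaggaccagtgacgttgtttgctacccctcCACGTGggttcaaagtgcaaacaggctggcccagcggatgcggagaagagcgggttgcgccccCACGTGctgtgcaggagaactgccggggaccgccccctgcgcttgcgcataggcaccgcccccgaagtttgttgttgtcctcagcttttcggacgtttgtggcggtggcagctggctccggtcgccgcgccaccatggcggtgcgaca

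The promoters of the Atg8 genes with a TGACNNNGC match, Gabarap and Map1lc3b, are printed with that match in capitals. Both fell in NRK-49F, Gabarap also rose in NRK-52E, and Gabarapl2, an Atg8 gene that fell in NRK-49F, has no match. Gabarap (chr10:55213215-55213514, plus strand) held it 179 bases before the start on the reverse strand, so the capitals there read as its reverse complement. Map1lc3b (chr19:66574345-66574644, plus strand) held it 8 bases before the start on the forward strand.
Gabarap: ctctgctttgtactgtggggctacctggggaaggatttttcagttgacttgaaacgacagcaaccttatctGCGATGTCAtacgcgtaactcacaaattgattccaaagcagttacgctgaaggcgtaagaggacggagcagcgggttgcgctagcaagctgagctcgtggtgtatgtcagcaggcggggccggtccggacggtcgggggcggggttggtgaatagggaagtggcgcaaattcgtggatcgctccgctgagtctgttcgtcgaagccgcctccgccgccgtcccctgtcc
Map1lc3b: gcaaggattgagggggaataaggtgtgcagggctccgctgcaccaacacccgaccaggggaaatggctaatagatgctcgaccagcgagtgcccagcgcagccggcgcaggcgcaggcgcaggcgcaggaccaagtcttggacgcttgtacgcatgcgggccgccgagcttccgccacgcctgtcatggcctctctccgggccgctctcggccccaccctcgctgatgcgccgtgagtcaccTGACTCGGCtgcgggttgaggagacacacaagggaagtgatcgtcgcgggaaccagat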

How the data were processed

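RNA was read as pairs of 150-base reads. The authors deposited raw counts per gene for 16 libraries, and all columns were mapped to samples (columns not mapped numbered 0). The submitters' processing notes name HISAT2 2.1.0 and featureCounts on rn6, while the paper's methods name tophat2 and featureCounts with multi-mapping fragments counted. Which aligner made the counts was not tested. Total counts ranged from 16201084 to 34784862. Depth limits the precision of genes with few counts.

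All genes were fitted in R 4.3.3 with edgeR 4.0.16 (filterByExpr, TMM, quasi-likelihood test) and DESeq2 1.42.0 (Wald test, independent filtering), by line or pH with 8 libraries, and over 16 libraries for the difference of the pH effects. A call needed an FDR below 0.01 in both tools. The code was tested on simulated data. The members and lists were chosen with earlier results of these data known. Values per library were given for 21 genes: in each line the 3 largest called rises and falls without overlap of the groups, called opposite signs, the 3 largest called differences of the pH effects in each direction, the 3 largest called differences between the lines at pH 7.4 in each direction, the Atg8 family, Ulk1, Becn1 and Atg5. Other genes named were chosen after their values were seen.

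Alternatives were DESeq2 size factors, library totals, the low-count filter, an FDR of 0.05, all 16 libraries in 1 fit, the column number as covariate or subset, and leaving out each library. Library totals in both tools were added after seeing the data. Replicate pairing is not stated and was not used here. Promoter bases came from the RefSeq reference, and no protein sequence was used.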

Additional observations from a re-analysis of the deposited data

Results flagged for a closer look

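For 17 members, the test of the difference between the pH effects, NRK-52E minus NRK-49F, was called. Positive log2 differences were 1.26 for Atg101, 0.91 for Ambra1, 0.85 for Wipi1, 0.69 for Atg3, 0.67 for Atg4b and 1.31 for Atg12. Among the Atg8 family they were 0.94 for Map1lc3a, 0.93 for Map1lc3b, 1.07 for Gabarap, 0.54 for Gabarapl1 and 0.69 for Gabarapl2. Among the receptor and selective autophagy genes they were 0.62 for Tax1bp1 and 0.54 for Pink1. Negative differences were -0.67 for Atg2a, -1.26 for Atg4c, -0.71 for Vps18 and -1.70 for Tecpr1. With library totals 7 of the 17 were not called, those of Wipi1, Atg3, Atg4b, Gabarapl1, Gabarapl2, Tax1bp1 and Pink1, so 6 positive ones were left. The differences of Gabarapl2 and Pink1 were each lost in 11 of 16 fits with 1 library left out, that of Atg2a in 4, and those of Wipi1, Atg3 and Gabarapl1 in 1.

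In 9 of 172 groups of 4 libraries, 1 library lay far from the other 3 by Dixon's criterion, the gap to the nearest library divided by the group's range. Chance gives about 1 in 20 groups, or 8.6 here. Library N8 held 4 of the 9, all in NRK-52E at pH 6.0. It had Atg14 at 17.1 FPM against 22.3 to 22.9 in the others (ratio 0.89) and Ambra1 at 66.1 FPM against 98.7 to 101 (0.924). It also had Wipi2 at 62.3 FPM against 92.9 to 94.4 (0.953) and Atg16l1 at 47.1 FPM against 61 to 61.7 (0.953). In the same group, N3 had Atg101 at 111 FPM against 75.9 to 81.6 (0.837) and Gabarapl1 at 372 FPM against 314 to 316 (0.974). N4 had Calcoco1 at 198 FPM against 188 to 190 (0.849). In NRK-52E at pH 7.4, N1 had Becn1 at 87.2 FPM against 74.4 to 76.4 (0.845). In NRK-49F at pH 7.4, N13 had Wdfy3 at 21.6 FPM against 45 to 48.4 (0.871). No cause was tested.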

How the results depend on the processing

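The 43 members had 108 calls over the 5 comparisons, and 27 of these were lost with at least 1 library left out. Those fits gave 1000 values, of which 881 stayed called, 119 were no longer called and 0 reversed. Under the other settings, 51 of the 108 calls were lost at least once, and 1000 of 1091 values stayed called, 91 did not and 0 reversed. For the 21 genes with values per library, which held 67 of the calls, 15 were lost with a library left out and 27 under another setting.

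Leaving out 1 library gave 3 to 6 falls in NRK-52E and 5 to 9 rises in NRK-49F. It gave a median of 0.14 to 0.23 between the lines at pH 6.0, 8 to 14 positive differences, and a median difference of 0.17 to 0.39. With library totals the members' median was 0.23 in NRK-52E, 0.09 in NRK-49F, 0.16 between the lines at pH 7.4, 0.35 at pH 6.0 and 0.06 for the difference, with totals in edgeR or in both tools. Totals also gave 7 members lower in NRK-52E at pH 7.4 and 6 positive differences in either version, and 9 falls in NRK-52E with totals in both tools. Column number 22 alone gave 5 rises, 2 falls and a median of 0.36 in NRK-52E. In NRK-49F, column number 20 alone gave a median of 0.11, and number 21 alone gave 1 rise and 1 fall. These subsets hold fewer libraries, and each also gave fewer calls over all genes, as given above. An FDR of 0.05 gave 24 rises and 10 falls in NRK-52E, against 4652 rises and 4728 falls of 13735 genes tested. All 16 libraries in 1 fit gave a median of -0.24 between the lines at pH 7.4, and DESeq2 size factors gave 0.24 at pH 6.0. The summed level in NRK-52E at pH 7.4 was 3219 FPM with DESeq2 size factors and 3624 FPM with totals. In NRK-49F it was 3757 and 3438 FPM at pH 7.4, and 3646 FPM with totals at pH 6.0. Where a value moved, the cause was not tested.

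Each group holds 4 libraries of 1 line, and whether they came from separate cultures is not stated. Line and support cannot be told apart. The column number shares no stated meaning with wells, so no pairing was fitted. Counts by gene do not show autophagic flux, protein or lipidation. Scaling sets where the middle of all genes lies, so counts of rises and falls depend on it. Atg9b rests on 1 to 77 counts in each library other than N1.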

Other observations

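Other genes around the machinery were read from 3 further lists. A selection of genes, chosen after their values were seen, is given as log2 fold changes in both lines, with the difference between the lines. For these genes the fits leaving out single libraries were not read. Over all genes tested, 28.2% rose and 28.5% fell in NRK-52E, 18.4% rose and 19.4% fell in NRK-49F, and the difference was called positive for 19.3% and negative for 17.5%, with medians of 0.00, -0.00 and -0.01. Among 11 other selective autophagy receptors, 7 rose (63.6%) and 2 fell (18.2%) in NRK-52E, and 1 rose (9.09%) and 2 fell (18.2%) in NRK-49F, with medians of 0.60 and 0.07. The difference was positive and called for 5 (45.5%) and negative and called for 1 (9.09%). Stbd1, which binds glycogen, averaged 19.2 FPM in control and 346 FPM in acidic medium in NRK-52E. It had 4.18 (edgeR FDR 4.22e-07) in NRK-52E and 1.17 (edgeR FDR 0.00018) in NRK-49F, a difference of 3.01 (edgeR FDR 8.47e-07). Sqstm1, which encodes the receptor p62, averaged 402 and 1329 FPM in NRK-52E, then 1005 and 1054 FPM in NRK-49F. Its values were 1.74 (edgeR FDR 1.77e-06) in NRK-52E and 0.07 (edgeR FDR 0.555, not called) in NRK-49F, with a difference of 1.66 (edgeR FDR 4.13e-07). Bnip3, a mitophagy receptor, rose 1.99-fold in NRK-52E (edgeR FDR 0.000189) and had 0.68 (edgeR FDR 0.022, not called) in NRK-49F, with a difference of 0.30 (edgeR FDR 0.402, not called). Its relative Bnip3l fell in both lines, with -0.58 (edgeR FDR 0.000659) in NRK-52E and -0.42 (edgeR FDR 0.00326) in NRK-49F, and a difference of -0.18 (edgeR FDR 0.305, not called). Ccpg1, a receptor for endoplasmic reticulum, had -0.78 (edgeR FDR 0.000101) in NRK-52E and 0.34 (edgeR FDR 0.0262, not called) in NRK-49F, with a difference of -1.13 (edgeR FDR 1.71e-05). Tex264, another, had opposite called signs, 0.63 (edgeR FDR 0.0004) in NRK-52E and -0.82 (edgeR FDR 2.78e-05) in NRK-49F, with a difference of 1.43 (edgeR FDR 4.47e-07). Of 21 other phagophore and fusion factors, 10 rose (47.6%) and 1 fell (4.76%) in NRK-52E, and 5 rose (23.8%) and 3 fell (14.3%) in NRK-49F, with medians of 0.39 and 0.03. The difference was called positive for 8 (38.1%) and negative for 2 (9.52%). Ykt6, a fusion protein, had 1.17 (edgeR FDR 7.96e-05) in NRK-52E and 0.65 (edgeR FDR 0.000822) in NRK-49F, with a difference of 0.52 (edgeR FDR 0.0553, not called). For Wdr45b, a relative of Wipi1, the values were 1.09 (edgeR FDR 6.21e-05) in NRK-52E and 0.61 (edgeR FDR 0.000687) in NRK-49F, with a difference of 0.47 (edgeR FDR 0.0567, not called). Sh3glb1 also rose in both, with 0.81 (edgeR FDR 3.21e-05) in NRK-52E and 0.98 (edgeR FDR 1.76e-05) in NRK-49F, and a difference of -0.18 (edgeR FDR 0.295, not called). The scramblase gene Tmem41b had 0.87 (edgeR FDR 3.07e-06) in NRK-52E and -0.08 (edgeR FDR 0.55, not called) in NRK-49F, with a difference of 0.94 (edgeR FDR 7.21e-06). Ei24, the gene with the largest difference of this list, had 0.85 (edgeR FDR 4.19e-05) in NRK-52E and -0.30 (edgeR FDR 0.0104, not called) in NRK-49F, with a difference of 1.13 (edgeR FDR 3.73e-06). Snap29, which pairs with Stx17, had -0.69 (edgeR FDR 0.000284) in NRK-52E and -0.30 (edgeR FDR 0.0559, not called) in NRK-49F, with a difference of -0.41 (edgeR FDR 0.0443, not called). The fusion gene Vamp8 had 0.04 (edgeR FDR 0.86, not called) in NRK-52E and -0.72 (edgeR FDR 0.000229) in NRK-49F, with a difference of 0.74 (edgeR FDR 0.0081).

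Among 27 regulators of mTORC1, AMPK and the TFEB family, 6 rose (22.2%) and 10 fell (37%) in NRK-52E, and 3 rose (11.1%) and 5 fell (18.5%) in NRK-49F, with medians of -0.15 and 0.05. The difference was called positive for 10 (37%) and negative for 8 (29.6%). Trib3, a pseudokinase gene, averaged 5.87 and 164 FPM in NRK-52E. It had 4.81 (edgeR FDR 7.73e-08) in NRK-52E and 1.75 (edgeR FDR 0.000512) in NRK-49F, with a difference of 3.06 (edgeR FDR 7.43e-06). Of the mTORC1 inhibitor genes, Sesn2 had 2.89 (edgeR FDR 6.69e-07) in NRK-52E and -0.15 (edgeR FDR 0.524, not called) in NRK-49F, with a difference of 3.04 (edgeR FDR 2.68e-07), and Ddit4 had 2.39 (edgeR FDR 2.2e-06) in NRK-52E and -0.05 (edgeR FDR 0.746, not called) in NRK-49F, with a difference of 2.43 (edgeR FDR 3.3e-07). Tsc2 had opposite called signs, -0.74 (edgeR FDR 8.55e-05) in NRK-52E and 0.76 (edgeR FDR 9.74e-05) in NRK-49F, with a difference of -1.50 (edgeR FDR 3.88e-07). So did Deptor, with -1.15 (edgeR FDR 0.00758) in NRK-52E and 1.10 (edgeR FDR 0.00833) in NRK-49F, and a difference of -2.26 (edgeR FDR 0.000733). Akt1s1 had -0.90 (edgeR FDR 0.000208) in NRK-52E and -0.58 (edgeR FDR 0.000433) in NRK-49F, with a difference of -0.33 (edgeR FDR 0.119, not called). Depdc5 had -0.95 (edgeR FDR 0.000251) in NRK-52E and 0.30 (edgeR FDR 0.109, not called) in NRK-49F, with a difference of -1.26 (edgeR FDR 0.000114). Sesn3 had -1.37 (edgeR FDR 0.00112) in NRK-52E and 0.41 (edgeR FDR 0.157, not called) in NRK-49F, with a difference of -1.79 (edgeR FDR 0.000911), and Sesn1 had -0.01 (edgeR FDR 0.965, not called) in NRK-52E and -0.62 (edgeR FDR 0.000261) in NRK-49F, with a difference of 0.60 (edgeR FDR 0.00253). Mlst8, which encodes an mTOR complex subunit, had -1.68 (edgeR FDR 4.69e-06) in NRK-52E and -0.07 (edgeR FDR 0.733, not called) in NRK-49F, with a difference of -1.62 (edgeR FDR 1.75e-05). In the TFEB family, Mitf had -3.29 (edgeR FDR 0.000625) in NRK-52E and 0.26 (edgeR FDR 0.0426, not called) in NRK-49F. The Mitf difference was -3.56 (edgeR FDR 1.61e-05). Mean levels of Mitf were 1.32 FPM in control and 0.127 FPM in acidic medium in NRK-52E, then 25.7 and 30.7 FPM in NRK-49F. The acidic level in NRK-52E was too low for the filter, so Mitf was tested in that line through its control libraries. Its value in NRK-52E and the difference thus depend on the prior count. Both calls are included in the counts of this list. Tfe3 had 1.02 (edgeR FDR 0.002) in NRK-52E and -0.16 (edgeR FDR 0.431, not called) in NRK-49F, with a difference of 1.17 (edgeR FDR 0.0037), and Tfeb had -0.08 (edgeR FDR 0.468, not called) in NRK-52E and -0.92 (edgeR FDR 0.000117) in NRK-49F, with a difference of 0.82 (edgeR FDR 0.000439). Prkab1, an AMPK subunit gene, had 0.06 (edgeR FDR 0.541, not called) in NRK-52E and -1.15 (edgeR FDR 6.69e-07) in NRK-49F, with a difference of 1.20 (edgeR FDR 1.96e-07). Castor1, an arginine sensor gene, had 0.20 (edgeR FDR 0.158, not called) in NRK-52E and -0.74 (edgeR FDR 0.000106) in NRK-49F, with a difference of 0.92 (edgeR FDR 8.21e-05).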
